A study of Mus musculus with 14 samples.

Results

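The receptors described here are 43 G protein-coupled receptors of the pancreatic islet, taken by gene symbol from a list of receptors for incretins, fatty acids, transmitters and islet peptides. Of these, 42 had an Ensembl gene identifier among the 37310 gene rows of the count tables, and Galr3 was not analysed here. They were grouped by the G protein they are best known to use, into 13 stimulatory receptors, 18 inhibitory receptors, 7 Gq receptors and 5 with mixed or other coupling. The libraries are RNA-seq of mouse β-cells, which make and secrete insulin, and of whole pancreatic islets, where β-cells lie among α-, δ- and PP-cells and cells of vessels and stroma.

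The 14 libraries formed 6 groups, all labelled with the strain C57BL/6. Wild-type β-cells came from adults at postnatal day 45 (n = 3) and from neonates at day 6 (n = 3). Whole islets labelled TSC1 KO and their controls, labelled RC control, came from mice 8 weeks old (n = 2 each). The design text calls that knockout one of β-cells, and the sources used here do not name the promoter that drives the deletion. Whole islets labelled Db and their controls, labelled BKS control, came from mice 4 weeks old (n = 2 each), and the Db allele and the meaning of the prefixes RC and BKS are likewise unstated. No source says that libraries of a group are different animals; the p-values then reflect only how these libraries vary, and that may be technical.

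G protein-coupled receptors pass a signal at the cell surface to G proteins inside the cell. In β-cells, stimulatory (Gs) receptors such as those for the incretins raise cyclic AMP and enhance glucose-stimulated insulin secretion, and inhibitory (Gi/o) receptors, such as those for adrenaline, somatostatin and galanin, lower cyclic AMP and restrain it. Gq receptors, among them the muscarinic receptor Chrm3 and the fatty acid receptor Ffar1, act through phospholipase C and calcium release.

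The unit of level is CPM, the count of a gene divided by the scaled total of its library, and levels of different genes were compared only as CPM per kilobase of the longest annotated transcript. A gene was called higher or lower where the adjusted p of edgeR's quasi-likelihood test, corrected over all genes of a comparison, was under 0.05. After the filter on low counts, 27 receptors were tested in β-cells, 33 in TSC1 KO against RC control islets and 32 in Db against BKS control islets, with 25 in all 3 comparisons. Of the 42, 36 were tested in at least 1 of these comparisons. The remaining 6, Adra2c, Sstr1, Sstr4 and the opioid receptors Oprk1, Oprm1 and Oprd1, had too few counts in each of the 3. A receptor present in 1 group only can pass the filter through that group, so counts over the tested receptors describe them and are not evidence of a shared direction.

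Promoters are shown for 4 receptors on which the results turn: Gcgr and Sstr3, which were called in all 3 comparisons, and Ffar1 and Ffar3, neighbours on chromosome 7 that differed in their calls. The order of genes there is Ffar2, Ffar3, Ffar1. Each sequence is 1 of RefSeq's windows of 300 bases around a gene start on GRCm38.p6, written 5′ to 3′ on the strand of the gene, and Sstr3 has 2 annotated starts. Capitals mark matches on either strand to 1 of 6 motifs, the full cAMP response element TGACGTCA, its core TGACG, the homeodomain core TAATTA, the E-box CAGATG of bHLH factors, the E-box CACGTG of bHLH-zipper factors, and the Maf half-site TGCTGA. The core element lies within the full one, so matches to these overlap.
Gcgr promoter, chr11:120530477-120530776, plus strand: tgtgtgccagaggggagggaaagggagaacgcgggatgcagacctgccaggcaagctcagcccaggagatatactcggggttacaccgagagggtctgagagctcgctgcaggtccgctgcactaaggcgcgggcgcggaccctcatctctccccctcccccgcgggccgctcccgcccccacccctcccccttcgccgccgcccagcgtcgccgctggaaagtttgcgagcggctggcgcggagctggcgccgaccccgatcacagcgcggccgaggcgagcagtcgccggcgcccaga
Sstr3 promoter, chr15:78544296-78544595, minus strand: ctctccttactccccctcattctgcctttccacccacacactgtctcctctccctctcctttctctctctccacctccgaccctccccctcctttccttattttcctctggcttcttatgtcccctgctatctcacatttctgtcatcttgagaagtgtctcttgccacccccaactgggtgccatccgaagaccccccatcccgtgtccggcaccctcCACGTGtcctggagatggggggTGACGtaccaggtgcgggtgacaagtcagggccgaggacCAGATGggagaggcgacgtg
Sstr3 promoter, chr15:78541357-78541656, minus strand: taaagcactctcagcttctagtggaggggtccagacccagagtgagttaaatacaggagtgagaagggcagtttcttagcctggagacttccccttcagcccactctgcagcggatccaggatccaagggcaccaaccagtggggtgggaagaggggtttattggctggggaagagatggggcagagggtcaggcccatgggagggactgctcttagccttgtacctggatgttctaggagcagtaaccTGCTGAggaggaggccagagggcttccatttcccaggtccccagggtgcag
Ffar1 promoter, chr7:30861421-30861720, minus strand: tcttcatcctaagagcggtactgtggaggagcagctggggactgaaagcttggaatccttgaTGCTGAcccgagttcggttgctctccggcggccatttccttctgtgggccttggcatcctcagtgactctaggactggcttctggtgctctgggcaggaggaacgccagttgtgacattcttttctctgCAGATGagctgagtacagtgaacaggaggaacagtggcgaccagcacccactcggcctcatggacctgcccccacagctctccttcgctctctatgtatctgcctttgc
Ffar3 promoter, chr7:30856129-30856428, minus strand: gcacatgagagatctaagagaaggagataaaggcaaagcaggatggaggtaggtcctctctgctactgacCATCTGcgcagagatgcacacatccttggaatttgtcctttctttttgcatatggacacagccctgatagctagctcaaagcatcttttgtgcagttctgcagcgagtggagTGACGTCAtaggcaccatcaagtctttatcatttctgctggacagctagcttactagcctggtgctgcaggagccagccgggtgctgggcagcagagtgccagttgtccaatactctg
The Gcgr window held none of these motifs, and the Ffar3 window held the full cAMP response element, which 1.79% of all 32851 promoter windows of this length also hold. Among the 34 receptors with a window in that table, the full element was matched in Ffar3 and Sstr2. The core TGACG was matched in 7 of the 34 receptors, against 20.8% of all windows, TGCTGA in 8, against 19.5%, CACGTG in 7, against 7.15%, CAGATG in 5, against 17.2%, and TAATTA in 0, against 5.29%. Some receptors have more than 1 window, so shares of receptors and of windows are not on the same base. Over the 44 windows of these receptors, the shares were 15.9% for TGACG, 18.2% for TGCTGA, 18.2% for CACGTG, 13.6% for CAGATG and 0% for TAATTA. A match describes letters in a window and not a site in use.

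Facts of the whole series that bear on the receptors are these. Libraries held between 3507929 and 17688772 counts in genes, with the lowest totals in TSC1 KO islets. Mitochondrially encoded genes took 39.8% and 46.8% of gene counts in TSC1 KO islets, against 12.4% and 9.05% in RC controls, and between 0.153% and 8.27% in the other libraries. In β-cell libraries the endothelial marker Pecam1 was between 0 and 4.98 CPM, the leukocyte marker Ptprc between 0 and 4.99 CPM and the acinar enzyme Cpa1 between 0 and 8.90 CPM, while Ins1 was between 5373 and 24890 CPM. The glucagon gene Gcg was between 134 and 1640 CPM there, and the somatostatin gene Sst between 113 and 355 CPM. Mesenchymal markers summed to 207 CPM in neonatal replicate 3b and to between 5.85 and 38.7 CPM in the other β-cell libraries. Tsc1 itself was at 31.0 and 34.5 CPM in TSC1 KO islets, against 25.1 and 54.1 CPM in RC control islets (log2 change -0.28 ± 0.38 SE, edgeR adjusted p = 0.638). Because whole islets also hold cells other than β-cells and reads were counted over all exons, Tsc1 does not check these labels.

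Glp1r, the receptor of glucagon-like peptide 1 (ENSMUSG00000024027), was the most abundant receptor transcript per kilobase in β-cells of both ages. It averaged 109 ± 4.96 CPM per kilobase in adult and 91.9 ± 16.1 in neonatal β-cells (SD, n = 3 each). Next came Sstr3, a somatostatin receptor of the primary cilium (ENSMUSG00000044933), at 81.6 ± 1.72 CPM per kilobase in adult and 48.1 ± 7.96 in neonatal β-cells. The calcium-sensing receptor Casr averaged 36.2 ± 3.98 CPM per kilobase in adults and the α2A-adrenoceptor Adra2a 33.9 ± 7.68, so these neighbours in the order differed by less than their spread. The short-chain fatty acid receptor Ffar2 followed at 31.3 ± 0.711 and Gipr, the receptor of the incretin GIP (ENSMUSG00000030406), at 27.3 ± 0.996 CPM per kilobase in adults. In neonates Casr at 39.7 ± 11.97, Adra2a at 39.6 ± 14.7 and the adhesion receptor Adgrl1 at 35.6 ± 5.56 CPM per kilobase followed Sstr3 and also lay within each other's spread. Between 29 and 33 of the 42 receptors had at least 1 count in each β-cell library.

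The order was different in islets. In TSC1 KO islets the orphan receptor Gprc5c led with 22.4 ± 3.32 CPM per kilobase (SD, n = 2), ahead of the nucleotide receptor P2ry2 at 9.14 ± 0.206 and the orphan Gprc5b at 8.62 ± 2.05, the last 2 within their spread. Gipr at 51.1 ± 11.3 and Sstr3 at 43.8 ± 14.1 CPM per kilobase led in RC control islets, followed by the glucagon receptor Gcgr (ENSMUSG00000025127) at 25.0 ± 1.30, the first 2 within their spread. Sstr3 led in Db islets at 66.8 ± 1.81 CPM per kilobase, with Adra2a at 32.9 ± 1.10, Glp1r at 30.7 ± 4.48 and Ffar2 at 27.5 ± 1.91 after it. Adra2a at 41.9 ± 3.06 and Sstr3 at 41.8 ± 3.94 were level in BKS control islets, followed by Gipr at 35.2 ± 4.38 and Glp1r at 32.2 ± 0.484 CPM per kilobase.

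As a share of the summed level per kilobase of all 42 receptors, stimulatory receptors made up 22.0% and 20.4% in the TSC1 KO libraries, against 40.8% and 41.3% in the RC control libraries. They made up 29.6% and 30.8% in Db islets, against 42.3% and 40.2% in BKS control islets. In both pairs the mutant libraries lay below both control libraries. In Db islets the class did not move as a whole, with 3 of 12 stimulatory receptors called higher and 3 lower. Gipr averaged 10.2 CPM per kilobase there, against 35.2 in BKS control islets, and the bile acid receptor Gpbar1 12.3, against 0.0597. In adult β-cells the share of stimulatory receptors was 36.4%, 34.7% and 34.5%, within the range of 28.8% to 37.0% in neonatal β-cells. Inhibitory receptors made up 26.4% and 20.6% in the TSC1 KO libraries, against 32.9% and 30.6% in the RC control libraries, and 44.1% and 41.4% in Db islets, against 40.4% and 37.3% in BKS control islets. Receptors of mixed or other coupling made up 35.0% and 44.4% in the TSC1 KO libraries, against 15.4% and 14.1% in the RC control libraries. Their summed level was alike, at 35.39 and 42.56 CPM per kilobase in TSC1 KO, against 36.64 and 43.35 in RC control libraries. Its members moved in opposite directions. Gprc5c averaged 22.4 CPM per kilobase in TSC1 KO, against 6.11 in RC control islets, Gprc5b 8.62, against 4.09, and Lgr4 3.65, against 2.21. Ffar2 averaged 0.645, against 11.2, and Adgrl1 3.70, against 16.4. The sums of stimulatory receptors were 22.26 and 19.53, against 96.94 and 127.4 CPM per kilobase. Those of inhibitory receptors were 26.68 and 19.77, against 78.05 and 94.32 CPM per kilobase. These shares and sums are descriptions of each library and were not tested.

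The comparison of adult with neonatal β-cells asked how receptor transcripts differ across postnatal maturation. Of the 27 receptors tested, 2 were called higher in adult β-cells and 4 lower, against 3.38% and 3.6% of the 14304 genes tested, and 6.98% in either direction. The somatostatin receptor Sstr3 and the prostaglandin E2 receptor Ptger3, both inhibitory, rose, and the stimulatory receptors Gcgr and Adora2a, the adhesion receptor Adgrl1 and the orphan Gprc5c fell. None of the 5 Gq receptors tested was called. The median log2 fold change over the 27 was -0.22, against -0.03 over all genes tested. In all 6 called receptors the groups did not overlap, which also held for 27.4% of all genes.

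Among the stimulatory receptors, Gcgr, through which glucagon raises cyclic AMP, was at 10.4, 20.6 and 7.04 CPM in adult β-cells, against 25.7, 68.5 and 41.4 CPM in neonatal β-cells. All 3 adult libraries lay below the neonatal ones, with a log2 fold change of -1.83 ± 0.43 (SE, edgeR adjusted p = 0.0185). The call was lost without adult replicate 1 (adjusted p = 0.0986) or adult replicate 3 (adjusted p = 0.0827). Adora2a, a stimulatory receptor of adenosine, was at 0.803, 2.28 and 0.960 CPM in adult β-cells, against 8.85, 8.54 and 19.2 CPM in neonatal β-cells. The groups were well apart at low counts, with a log2 fold change of -3.17 ± 0.75 (SE, edgeR adjusted p = 0.0174). Its adjusted p was 0.0829 without adult replicate 1, 0.0812 without adult replicate 3 and 0.107 without neonatal replicate 3b, and limma-voom did not call it (adjusted p = 0.1).

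Both incretin receptors stayed uncalled with age. Glp1r was at 619.8, 610.1 and 664 CPM in adult β-cells, against 571, 427 and 603 CPM in neonatal β-cells. The adult libraries were just above the neonatal ones, by a log2 fold change of 0.24 ± 0.16 (SE, edgeR adjusted p = 0.428). Gipr was at 90.4, 86.2 and 84.3 CPM in adult β-cells, against 103, 71.2 and 135 CPM in neonatal β-cells. These groups overlapped, and the log2 fold change was -0.25 ± 0.23 (SE, edgeR adjusted p = 0.621). Gpr119, a receptor for lipid amides, had a log2 fold change of 0.21 ± 0.33 (adjusted p = 0.796) and the VIP receptor Vipr1 one of 0.55 ± 0.34 (adjusted p = 0.396). Crhr2, Vipr2 and Ptger4 had under 10 CPM in every β-cell library and standard errors above 1 on the log2 scale.

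Of the inhibitory receptors, Sstr3 was at 347, 357 and 343 CPM in adult β-cells, against 187, 245 and 186 CPM in neonatal β-cells. The adult libraries were close together and above all neonatal ones, with a log2 fold change of 0.76 ± 0.16 (SE, edgeR adjusted p = 0.00975). Without adult replicate 1 or 2 its adjusted p was 0.0519 or 0.0625. Ptger3, an inhibitory receptor of prostaglandin E2, was at 43.8, 41.9 and 64.3 CPM in adult β-cells, against 26.3, 16.2 and 14.7 CPM in neonatal β-cells. The lowest adult library was above the highest neonatal one, with a log2 fold change of 1.39 ± 0.32 (SE, edgeR adjusted p = 0.0153), and the adjusted p was 0.124 without adult replicate 3. Ffar3, Adra2a, Chrm4, Galr1, Adora1 and Cnr1 were not called, with log2 fold changes between -3.21 ± 1.18 for the cannabinoid receptor Cnr1 (adjusted p = 0.119) and 0.25 ± 0.25 for the galanin receptor Galr1 (adjusted p = 0.652). DESeq2 called Cnr1 lower (adjusted p = 0.0167).

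None of the Gq receptors was called by edgeR on all 6 libraries after the filter, but Ffar4 was called under other settings. Ffar4, a receptor of long-chain fatty acids, was at 0.736, 2.00 and 13.9 CPM in adult β-cells, against 19.3, 44.5 and 37.1 CPM in neonatal β-cells. Adult replicate 3 stood between the other 2 adult libraries and the neonatal ones, and the log2 fold change of -2.61 ± 1.00 was not called (SE, edgeR adjusted p = 0.195), against an adjusted p of 0.000424 without that library. On all 6 libraries it was called lower with no filter on low counts (-2.61, adjusted p = 0.0135) and by limma-voom (-3.63, adjusted p = 0.0296). Ffar1, Chrm3, Casr and the ADP receptor P2ry1 had log2 fold changes between -0.66 ± 0.34 for Ffar1 and 0.28 ± 0.27 for P2ry1, with adjusted p-values of 0.29 or more. P2ry2 and the vasopressin receptor Avpr1b were at 0 in all 3 adult libraries.

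Adgrl1, also called latrophilin 1, was at 108, 134 and 134 CPM in adult β-cells, against 239.8, 307 and 326 CPM in neonatal β-cells. The adult libraries were all below the neonatal ones, and the log2 fold change of -1.22 ± 0.18 (SE, edgeR adjusted p = 0.000613) was the only one of the 6 called under every alternative that was run. An annotated gene on the opposite strand covers 12.9% of its exon bases, and without a stated strand setting reads of the gene pair cannot be told apart. The orphan Gprc5c was at 18.5, 10.99 and 17.1 CPM in adult β-cells, against 36.4, 103.8 and 28.6 CPM in neonatal β-cells. Its groups did not overlap (log2 change -1.86 ± 0.44 SE, edgeR adjusted p = 0.0234), but neonatal replicate 3a was far above the rest. Without neonatal replicate 3a the log2 fold change was -1.06 (adjusted p = 0.0719), and without adult replicate 1, 2 or 3 the adjusted p was 0.0841, 0.115 or 0.0881. Nor did limma-voom call Gprc5c (adjusted p = 0.0647). Gprc5b was at 0.535, 1.57 and 1.92 CPM in adult β-cells, against 7.22, 8.68 and 9.37 CPM in neonatal β-cells. Its log2 fold change of -2.65 ± 0.87 was not called by edgeR (adjusted p = 0.0812) and was called by DESeq2 (adjusted p = 0.00713). Lgr4, a receptor of R-spondins, had a log2 fold change of 0.91 ± 0.28 (edgeR adjusted p = 0.0654) and was called with no filter on low counts (adjusted p = 0.0254) and by DESeq2 (adjusted p = 0.0363).

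**Figure D1:**
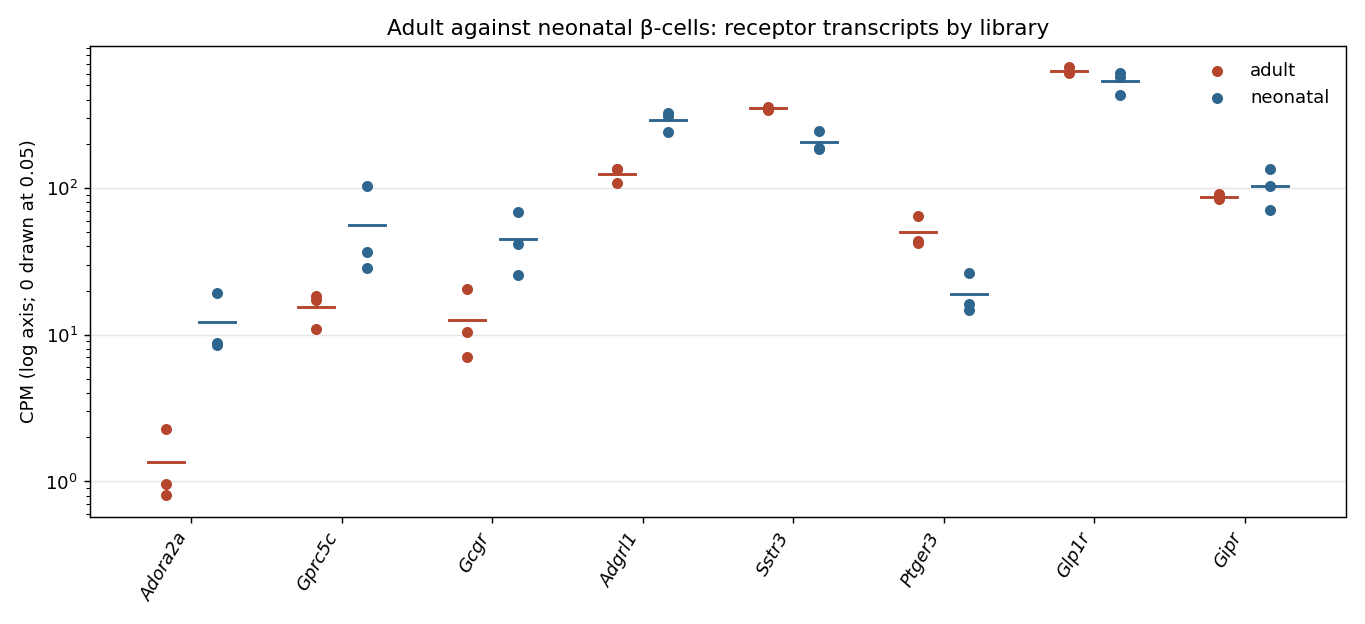
Transcript levels in CPM on a log axis for the 6 receptors called between adult and neonatal β-cells and for Glp1r and Gipr. Points are libraries (n = 3 each), bars are means, and adult points lie left of neonatal ones; Sstr3 and Ptger3 are higher in every adult library, and Gcgr, Adora2a, Adgrl1 and Gprc5c lower.

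Downstream of the receptors, the G proteins that lower cyclic AMP moved in both directions with age. Gnai1 and Gnai2, α subunits of the inhibitory Gi class, were higher in adult β-cells (log2 changes 0.98 ± 0.27 and 0.48 ± 0.14 SE, edgeR adjusted p = 0.04 and 0.049), and Gnaz, the α subunit Gz, was lower (-0.93 ± 0.18, adjusted p = 0.00568). Of the 12 α subunits tested 2 were called higher and 1 lower, and of the 9 β and γ subunits and the 7 receptor kinases and arrestins 0. Over all genes of this comparison, 3.38% were called higher and 3.6% lower. Rgs2, which speeds the shut-off of Gq, was at 223, 63.3 and 110.6 CPM in adult β-cells, against 12.2, 20.0 and 6.15 CPM in neonatal β-cells, with no overlap (log2 fold change 3.38 ± 0.59 SE, adjusted p = 0.0169). Rgs11 fell (-1.43 ± 0.24, adjusted p = 0.0021), and no other of the 13 RGS genes was called. Of 13 cAMP effectors the protein kinase A subunit Prkacb alone was called (0.90 ± 0.14, adjusted p = 0.00133), and of 10 Gq effectors the inositol trisphosphate receptor Itpr3 (-1.71 ± 0.20, adjusted p = 7.3e-05) and the protein kinase C Prkcd (-1.07 ± 0.31, adjusted p = 0.0452) fell. Among 10 peptide ligand genes, Pdyn, the precursor of ligands of the opioid receptor Oprk1, rose (5.36 ± 0.48, adjusted p = 6.45e-06), as did the Crhr2 ligand Ucn3 (1.34 ± 0.24, adjusted p = 0.00329). Oprk1 itself had at most 1 count in any β-cell library.

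Markers of other cells moved with age too. Of the 12 β-cell markers 7 were called higher in adult β-cells, with summed levels of 57100 to 93150 CPM against 25230 to 34570 CPM in neonatal β-cells. Of 8 α-cell markers tested 2 were called lower, the sum being 400.6 to 2042 CPM in adult against 882 to 1804 CPM in neonatal β-cells. Of 6 δ- and PP-cell markers 3 were called lower, with sums of 280.5 to 570 CPM against 609.5 to 1002 CPM. Of 10 duct markers 5 were called lower, the duct sum being 553 to 706 CPM in adult against 1064 to 1677 CPM in neonatal β-cells. In these bulk samples fewer cells of a type and less RNA per cell cannot be told apart, and the part of these markers in the receptor differences was not tested.

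The comparison of TSC1 KO with RC control islets asked how receptor transcripts differ when Tsc1, an inhibitor of the growth kinase complex mTORC1, is deleted in β-cells. Of 33 receptors tested, 3 were called higher in TSC1 KO islets and 14 lower, against 8.63% and 10% of the 14515 genes tested and 18.6% in either direction. The 14 were 5 of 11 stimulatory, 5 of 10 inhibitory and 2 of 7 Gq receptors, and Ffar2 and Adgrl1 of the mixed class, and the 3 that rose were P2ry2, Gprc5b and Gprc5c. The median log2 fold change over the 33 was -1.45, against -0.00 over all genes. In the 17 called receptors the libraries of the groups did not overlap, as for 67.7% of all genes.

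These calls rest on both TSC1 KO libraries. Without TSC1 KO replicate 1 or replicate 2, edgeR called 0 of the receptors and 0 of all genes. The log2 fold changes of the 17 receptors kept their sign in both fits, and their adjusted p-values were between 0.0892 and 0.235. DESeq2 on all 4 libraries called 2 receptors higher and 15 lower, and 1194 higher and 1240 lower of 15234 genes. With 2 libraries a group, SDs and standard errors are themselves poorly known.

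Gcgr was at 2.56 and 1.00 CPM in TSC1 KO islets, against 64.8 and 60.2 CPM in RC control islets. Both knockout libraries were far below both controls, with a log2 fold change of -5.03 ± 0.36 (SE, edgeR adjusted p = 0.0105). The incretin receptor Gipr was at 14.2 and 10.4 CPM in TSC1 KO islets, against 137 and 188 CPM in RC control islets, again without overlap (log2 change -3.71 ± 0.30 SE, edgeR adjusted p = 0.0105). Glp1r was at 7.22 and 8.70 CPM in TSC1 KO islets, against 15.6 and 58.3 CPM in RC control islets. The knockout libraries were the lower ones, but the RC control libraries differed widely, and the log2 fold change of -2.22 ± 0.69 was not called (SE, edgeR adjusted p = 0.0873). Without RC control replicate 1 it was -2.88 with an adjusted p of 0.000794, and DESeq2 called it lower (adjusted p = 0.00758).

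Gpr119 had 3 counts in the TSC1 KO libraries together and 119 in the RC control libraries, at 0.466 and 0.334 CPM against 6.64 and 11.3 CPM. Its level was 22.0-fold lower, with a 95% counting interval of 7.35 to 108-fold (edgeR adjusted p = 0.0141). Crhr1, a receptor of corticotropin-releasing hormone, had 1 count in TSC1 KO and 69 in RC control islets, at 0.233 and 0 CPM against 5.21 and 5.30 CPM. That is 38.3-fold lower with an interval of 6.65 to 1533-fold (edgeR adjusted p = 0.0179), so the size is known only loosely. Such intervals cover counting error only. Vipr1 also fell (log2 change -1.69 ± 0.37 SE, edgeR adjusted p = 0.0348). The PACAP receptor Adcyap1r1 (-0.02 ± 0.42, adjusted p = 0.976), Ptger4 (0.52 ± 0.33, adjusted p = 0.301), Adora2a (-0.74 ± 0.36, adjusted p = 0.185), Crhr2 and the β1-adrenoceptor Adrb1 were not called.

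The inhibitory receptor Sstr3 fell to 21.2 and 7.36 CPM in TSC1 KO islets, against 145 and 229.8 CPM in RC control islets (log2 change -3.68 ± 0.54 SE, edgeR adjusted p = 0.017). Both knockout libraries were below both controls. The muscarinic receptor Chrm4 (-3.03 ± 0.67, adjusted p = 0.0327), Ffar3 (-2.96 ± 0.70, adjusted p = 0.041), Galr1 (-2.59 ± 0.48, adjusted p = 0.0216) and Adra2a (-1.44 ± 0.22, adjusted p = 0.0162) also fell. Ffar3 lost its call without RC control replicate 2 (adjusted p = 0.0635), and Chrm4 without RC control replicate 1 (adjusted p = 0.0683) and with limma-voom (adjusted p = 0.0692). Npy1r (0.64 ± 0.34, adjusted p = 0.229), Adora1 (0.57 ± 0.27, adjusted p = 0.175), Sstr2 (0.62 ± 0.53, adjusted p = 0.442), Ptger3 and Cnr1 were not called. Sstr5 was at 0 in all 4 of these libraries.

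In the Gq class the nucleotide receptors parted. P2ry1, which binds ADP, was at 4.43 and 5.02 CPM in TSC1 KO islets, against 62.3 and 99.8 CPM in RC control islets (log2 change -4.10 ± 0.34 SE, edgeR adjusted p = 0.0105). P2ry2, which binds ATP and UTP, was at 28.0 and 27.1 CPM in TSC1 KO islets, against 5.06 and 1.77 CPM in RC control islets (log2 change 3.01 ± 0.47 SE, edgeR adjusted p = 0.0164). The groups did not overlap for either gene. Ffar1, the receptor through which long-chain fatty acids enhance insulin secretion, fell (-2.81 ± 0.59, adjusted p = 0.0288), a call lost without RC control replicate 2 (adjusted p = 0.0611) and with limma-voom (adjusted p = 0.0873). Casr was at 5.83 and 2.34 CPM in TSC1 KO islets, against 6.00 and 22.4 CPM in RC control islets, and was not called (-1.74 ± 0.77, adjusted p = 0.171), but was called without RC control replicate 1 (adjusted p = 0.00986). Ffar4, Chrm3 and Avpr1b were not called either.

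Ffar2, which couples to both Gi and Gq, was at 1.63 and 1.34 CPM in TSC1 KO islets, against 24.2 and 27.2 CPM in RC control islets. Replicates agreed closely in both groups, with a log2 fold change of -4.07 ± 0.32 (SE, edgeR adjusted p = 0.0105). Gprc5c was at 73.4 and 90.6 CPM in TSC1 KO islets, against 28.6 and 16.2 CPM in RC control islets, the reverse order (1.87 ± 0.31, adjusted p = 0.0184). Gprc5b was at 32.4 and 45.5 CPM in TSC1 KO islets, against 19.1 and 17.8 CPM in RC control islets (1.07 ± 0.24, adjusted p = 0.0348). That call was lost without RC control replicate 2 (adjusted p = 0.0523), under scaling by size alone (adjusted p = 0.0593) and with DESeq2 (adjusted p = 0.0512). A gene on the opposite strand covers 13.1% of the exon bases of Gprc5b. Adgrl1 fell (-2.14 ± 0.37, adjusted p = 0.0198) and Lgr4 was not called (0.71 ± 0.28, adjusted p = 0.128).

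**Figure D2:**
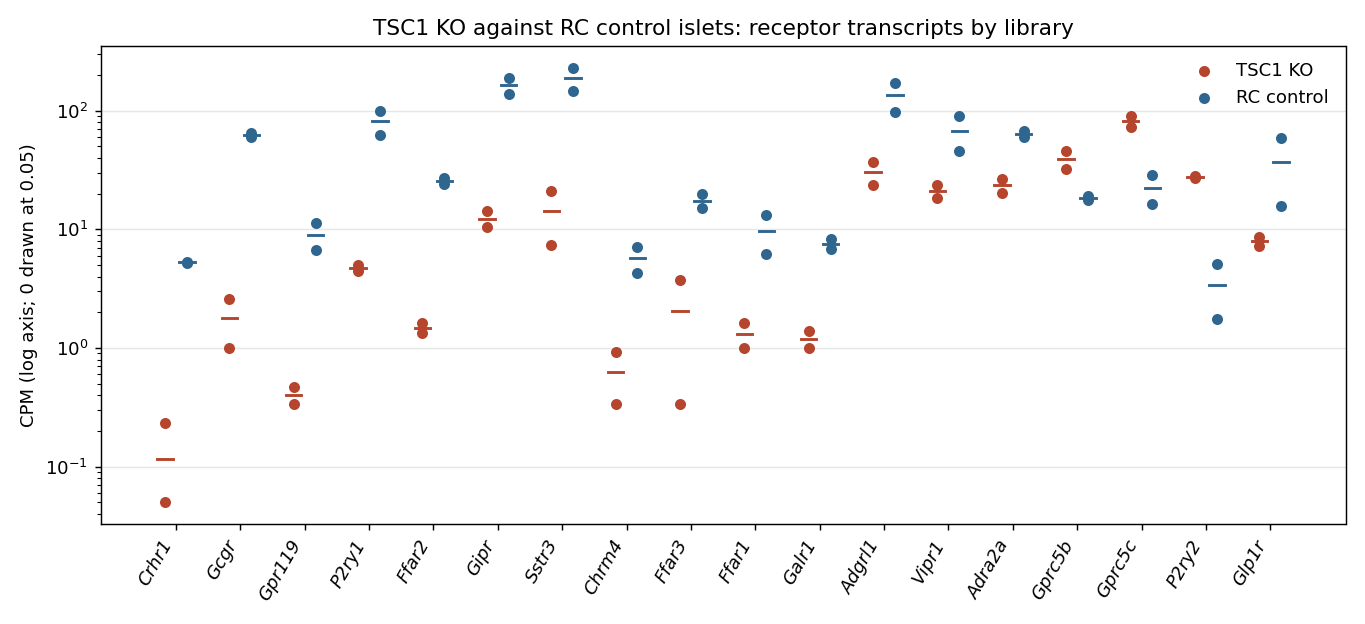
Transcript levels in CPM on a log axis for the 17 receptors called between TSC1 KO and RC control islets and for Glp1r, ordered by fold change with Glp1r last. Points are libraries (n = 2 each) and bars are means, with 0 drawn at 0.05; the 14 receptors on the left are lower in both TSC1 KO libraries and Gprc5b, Gprc5c and P2ry2 higher.

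Markers of β- and α-cells were mostly lower in TSC1 KO islets, and markers of other cells differed too. The 12 β-cell markers summed to 13000 and 13480 CPM in TSC1 KO islets, against 235800 and 266700 CPM in RC control islets, and 11 of them were called lower. Ins1 was at 6582 and 5880 CPM in TSC1 KO islets, against 76650 and 80430 CPM in RC control islets. Of 8 α-cell markers tested 6 were called lower, with sums of 4292 and 1511 CPM against 14020 and 18700 CPM, and Gcg at 3873 and 1228 CPM against 12830 and 17260 CPM. Of 5 δ- and PP-cell markers tested 1 was called higher and 2 lower, with sums of 3679 and 1779 CPM against 20100 and 9764 CPM. Sst was at 1733 and 573 CPM in TSC1 KO islets, against 1899 and 1769 CPM in RC control islets. Duct markers summed to 3046 and 4352 CPM in TSC1 KO islets, against 1785 and 539 CPM in RC control islets, with 2 of 10 called higher, and stomach mucosa markers to 190.4 and 320 CPM, against 19.8 and 10.9 CPM, with all 4 tested called higher and Gkn1 at 0 in every library. Endothelial markers summed to 4961 and 3718 CPM, against 2351 and 2611 CPM, with 3 of 8 called higher, and mesenchymal markers to 869 and 4463 CPM, against 699 and 313 CPM, with 0 of 9 called. The share of mitochondrially encoded counts, given above, also differed between the groups. The part of these differences in the receptor results was not tested.

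Signalling genes downstream of the receptors and genes of their ligands were called in several lists. Over all genes of this comparison, 8.63% were called higher and 10% lower. Gnao1, the α subunit Go, fell (log2 change -2.62 ± 0.39 SE, edgeR adjusted p = 0.016), as did Gnaz (-1.60 ± 0.28, adjusted p = 0.0198), the 2 called of 12 α subunits, and Gng4 was the 1 called of 11 β and γ subunits (-1.97 ± 0.26, adjusted p = 0.0127). Of 7 receptor kinases and arrestins, β-arrestin 1, Arrb1, rose to 149 and 176 CPM in TSC1 KO islets, against 43.9 and 18.0 CPM in RC control islets (2.40 ± 0.44, adjusted p = 0.0242), while Grk3 (-1.57 ± 0.38, adjusted p = 0.0425) and Arrb2 (-0.81 ± 0.20, adjusted p = 0.0418) fell. The RGS genes called, 6 of 14, were all lower, led by Rgs11 (-3.32 ± 0.42, adjusted p = 0.0123), Rgs7 (-2.57 ± 0.56, adjusted p = 0.0316) and Rgs16 (-1.83 ± 0.23, adjusted p = 0.0118). Of 13 cAMP effectors 3 fell, among them the protein kinase A subunits Prkar1b (-1.73 ± 0.23, adjusted p = 0.0128) and Prkacb (-1.36 ± 0.25, adjusted p = 0.0216) and Crem (-0.91 ± 0.24, adjusted p = 0.0495), and 1 rose. Of 11 Gq effectors 4 rose, with Itpr2 (1.54 ± 0.20, adjusted p = 0.0123) and Itpr3 (1.47 ± 0.23, adjusted p = 0.0161) ahead, and Prkcb fell (-1.42 ± 0.38, adjusted p = 0.0494). Of 11 peptide ligand genes 7 were called, all lower, the largest being the Lgr4 ligand Rspo4 (-3.73 ± 0.47, adjusted p = 0.0118), Ppy (-3.36 ± 0.62, adjusted p = 0.0216) and Pdyn (-3.32 ± 0.79, adjusted p = 0.048). As for the receptors, none of these was called without either TSC1 KO library.

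In the third comparison, Db islets were set against BKS control islets, both at 4 weeks of age. Of 32 receptors tested, 12 were called higher in Db islets and 6 lower, against 24.3% and 23.9% of the 14369 genes tested and 48.2% in either direction, so the share of receptors called was close to that of all genes. The bile acid receptor Gpbar1 and the somatostatin receptor Sstr5, nearly absent from BKS control islets, had the largest rises, and Gipr the largest fall. Among inhibitory receptors 4 of 8 were called higher and 1 lower, among Gq receptors 3 of 7 higher and 1 lower, and among stimulatory receptors 3 of 12 higher and 3 lower. The median log2 fold change over the 32 was 0.22, against -0.03 over all genes. Libraries of the groups did not overlap in any of the 18 called receptors, as for 74.7% of all genes.

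Gpbar1, the cell surface receptor of bile acids (ENSMUSG00000064272), was at 13.1 and 13.3 CPM in Db islets, against 0 and 0.128 CPM in BKS control islets. Together the Db libraries held 511 counts and the controls 1, a ratio of 226 with a 95% counting interval of 40.4 to 8947 (edgeR adjusted p = 3.24e-11). The call held under every alternative that was run. Gpbar1 had at most 6 counts in any of the other 10 libraries, with 0 in all 6 β-cell libraries. Gipr was at 30.5 and 34.4 CPM in Db islets, against 122 and 102 CPM in BKS control islets. Both Db libraries were well below both controls (log2 change -1.79 ± 0.20 SE, edgeR adjusted p = 6.53e-08), and this call too held under every alternative.

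Glp1r was at 160.0 and 197 CPM in Db islets, against 189 and 185 CPM in BKS control islets. The groups overlapped, with a log2 fold change of -0.07 ± 0.20 (SE, edgeR adjusted p = 0.807). Gcgr was at 51.8 and 46.1 CPM in Db islets, against 78.1 and 61.2 CPM in BKS control islets. It was called lower (-0.51 ± 0.20, adjusted p = 0.0375), but the adjusted p was 0.251 without BKS control replicate 1, 0.115 without Db replicate 1 and 0.295 without Db replicate 2. Under scaling by library size alone the Gcgr log2 fold change was -0.23 (adjusted p = 0.607), and with no filter or with DESeq2 the adjusted p was 0.111 or 0.121.

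The other stimulatory receptors moved in both directions. Adcyap1r1, the specific receptor of PACAP, was at 1.161 and 0.776 CPM in Db islets, against 3.75 and 2.31 CPM in BKS control islets (log2 change -1.66 ± 0.43 SE, edgeR adjusted p = 0.00216). Vipr2, a receptor of VIP and PACAP, was at 1.22 and 1.12 CPM in Db islets, against 0 and 0.385 CPM in BKS control islets, or 45 counts against 3. That ratio was 6.64 with a counting interval of 2.13 to 33.4 (edgeR adjusted p = 0.00688). The call of Adcyap1r1 was lost without BKS control replicate 1 (adjusted p = 0.0557) or Db replicate 2 (adjusted p = 0.0519), and that of Vipr2 without BKS control replicate 1, Db replicate 1 or Db replicate 2 (adjusted p = 0.119, 0.0612 and 0.0569). DESeq2 called neither (adjusted p = 0.0548 for Adcyap1r1 and 0.0947 for Vipr2). Ptger4, a stimulatory receptor of prostaglandin E2, rose (1.36 ± 0.33, adjusted p = 0.00127), with 15.3% of its exon bases under a gene on the opposite strand. Gpr119, Crhr1, Crhr2, Vipr1 and Adora2a were not called.

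Sstr5 was at 3.70 and 2.47 CPM in Db islets, against 0 and 0.257 CPM in BKS control islets, or 118 counts against 2. The ratio was 26.1 with a counting interval of 7.07 to 218 (edgeR adjusted p = 7.07e-06). Chrm4 was at 6.80 and 7.03 CPM in Db islets, against 2.14 and 0.899 CPM in BKS control islets, with the Db libraries close together and higher (log2 change 2.14 ± 0.37 SE, edgeR adjusted p = 2.81e-05). Both calls held under every alternative. Adora1, an inhibitory receptor of adenosine, was at 6.75 and 7.90 CPM in Db islets, against 23.6 and 14.3 CPM in BKS control islets, the only inhibitory receptor called lower (-1.37 ± 0.26, adjusted p = 8.71e-05), with 20.1% of its exon bases under Mybph on the opposite strand. Galr1 (0.78 ± 0.24, adjusted p = 0.0088) and Sstr3 (0.68 ± 0.20, adjusted p = 0.00739) rose by less. Galr1 lost its call without BKS control replicate 2 (adjusted p = 0.0738), and Sstr3 without Db replicate 1 or 2 (adjusted p = 0.0686 and 0.0558). Ffar3, Adra2a and Ptger3 were not called. Ptger3 was called higher without BKS control replicate 1, which leaves a control library with 0 counts (adjusted p = 0.00414), and on all 4 libraries under scaling by size alone (1.59, adjusted p = 0.0421) and by limma-voom (2.08, adjusted p = 0.0357).

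P2ry2 was at 1.44 and 1.503 CPM in Db islets, against 0.321 and 0.513 CPM in BKS control islets. It rose at low counts (log2 change 1.82 ± 0.59 SE, edgeR adjusted p = 0.0122), and its adjusted p was 0.0833 without BKS control replicate 1, 0.0846 without Db replicate 1, 0.124 without Db replicate 2 and 0.127 with DESeq2. Ffar1 (1.25 ± 0.22, adjusted p = 4.35e-05) and Casr (1.10 ± 0.23, adjusted p = 0.000298) rose under every alternative. Chrm3, the receptor through which acetylcholine enhances insulin secretion, was at 2.54 and 3.30 CPM in Db islets, against 6.75 and 5.13 CPM in BKS control islets (-1.02 ± 0.32, adjusted p = 0.00889). That call was lost without BKS control replicate 1 (adjusted p = 0.0886) or Db replicate 1 (adjusted p = 0.1), under scaling by size alone (adjusted p = 0.119) and with DESeq2 (adjusted p = 0.0992). P2ry1 was at 48.2 and 46.2 CPM in Db islets, against 30.6 and 79.1 CPM in BKS control islets. Its control libraries lay on either side of the Db ones, so that it was lower in Db without BKS control replicate 1 (-0.72, adjusted p = 0.00207) and higher without replicate 2 (0.66, adjusted p = 0.0104). Ffar4 and Avpr1b were not called.

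Ffar2 was at 60.2 and 66.4 CPM in Db islets, against 23.7 and 16.0 CPM in BKS control islets. The Db libraries were both higher (log2 change 1.67 ± 0.22 SE, edgeR adjusted p = 6.26e-07). Lgr4 was at 2.76 and 2.28 CPM in Db islets, against 5.78 and 6.03 CPM in BKS control islets, in the opposite order (-1.23 ± 0.32, adjusted p = 0.00233). Gprc5b rose (1.12 ± 0.29, adjusted p = 0.00207), and these 3 calls held under every alternative. Adgrl1 (-0.19 ± 0.20, adjusted p = 0.447) and Gprc5c (0.25 ± 0.28, adjusted p = 0.48) were not called. Gprc5c was called higher without BKS control replicate 1 (0.89, adjusted p = 0.0192).

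**Figure D3:**
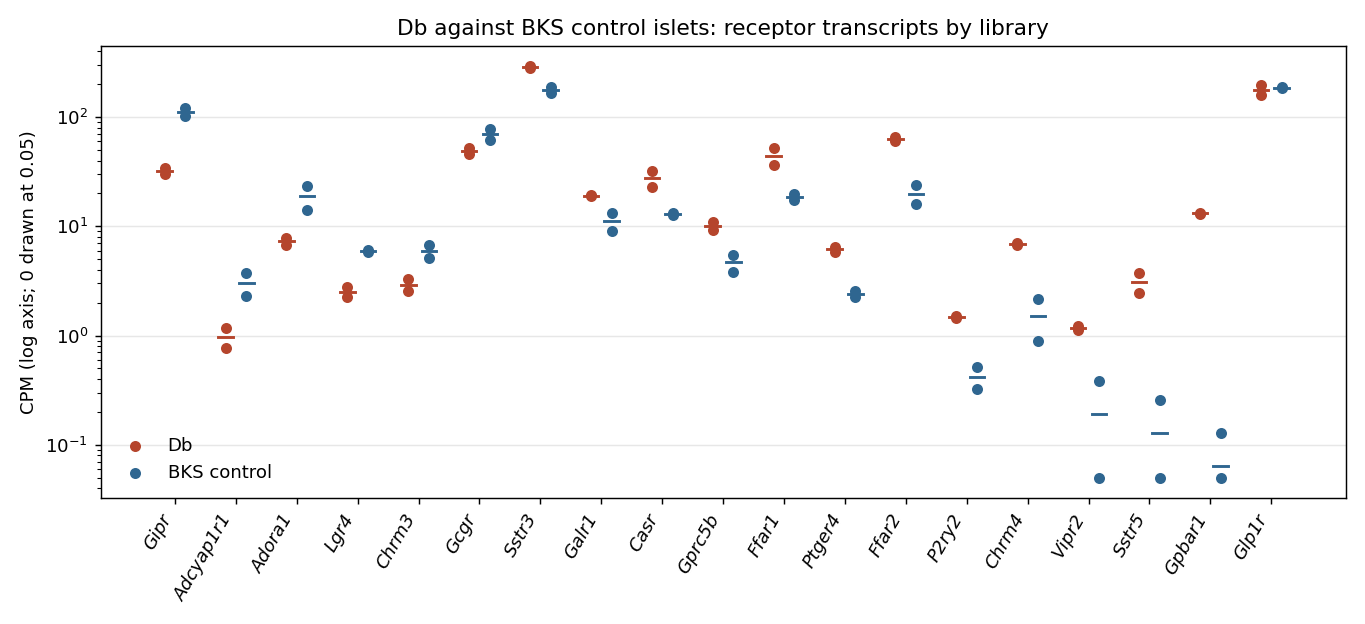
Transcript levels in CPM on a log axis for the 18 receptors called between Db and BKS control islets and for Glp1r, ordered by fold change with Glp1r last. Points are libraries (n = 2 each) and bars are means, with 0 drawn at 0.05; Gpbar1 is at 13.1 and 13.3 CPM in Db islets and at 0 and 0.128 CPM in BKS control islets.

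Markers of islet and other cells differed here too, in a comparison where 24.3% of all genes were called higher and 23.9% lower. β-cell markers summed to 495000 and 428000 CPM in Db islets, against 601100 and 921700 CPM in BKS control islets, with 9 of 12 called lower and 1 higher. Acinar markers summed to 284 and 129 CPM in Db islets, against 23.1 and 21.1 CPM, with 6 of 8 called higher, mesenchymal markers to 548 and 519 CPM, against 183 and 285 CPM, with 6 of 8 called higher, and immune markers to 191 and 179.6 CPM, against 228 and 187 CPM, with 2 of 8 called lower. α-cell markers summed to 3144 and 3805 CPM in Db islets, against 1008 and 2120 CPM in BKS control islets, with 4 of 8 called higher. The δ- and PP-cell markers summed to 8049 and 5903 CPM, against 3099 and 5838 CPM. Of 5 tested, 1 was called higher and 2 lower, with Sst at 3387 and 2148 CPM, against 891 and 973 CPM. Endothelial markers summed to 571 and 565 CPM in Db islets, against 839 and 798 CPM in BKS control islets, with 5 of 8 called lower and 2 higher. Duct markers summed to 1095 and 1100 CPM in Db islets, against 532 and 514.7 CPM in BKS control islets, with 4 of 9 called higher and 3 lower. The part of all these markers in the receptor differences was not tested.

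Among signalling genes, Gnas, the α subunit Gs that stimulatory receptors use, was at 1484 and 1380 CPM in Db islets, against 478 and 636 CPM in BKS control islets (log2 change 1.36 ± 0.23 SE, edgeR adjusted p = 1.87e-05). The counts for each list here stand beside 24.3% of all genes called higher in this comparison, 23.9% lower and 48.2% in either direction. Of 13 α subunits 4 rose and 2 fell, with Gna14 (2.69 ± 0.48, adjusted p = 4.78e-05) and Gna12 (1.98 ± 0.24, adjusted p = 2.52e-07) changing most. Of 11 β and γ subunits 3 rose and 3 fell, led by Gng7 (1.34 ± 0.51, adjusted p = 0.0322) and Gng2 (1.15 ± 0.30, adjusted p = 0.00261), and of 7 receptor kinases and arrestins 2 rose and 2 fell, led by Grk5 (-1.55 ± 0.26, adjusted p = 1.93e-05). Rgs1 (-3.84 ± 0.68, adjusted p = 6.84e-05), Rgs16 (1.41 ± 0.21, adjusted p = 4.72e-06) and Rgs5 (-1.17 ± 0.20, adjusted p = 2.64e-05) led the RGS genes, of which 4 of 14 rose and 3 fell. Creb1 (-1.56 ± 0.27, adjusted p = 2.53e-05) and the protein kinase A subunit Prkar1a (1.51 ± 0.21, adjusted p = 1.58e-06) led the 13 cAMP effectors, of which 5 rose and 3 fell. Of 10 Gq effectors 1 rose, Itpr3 (0.81 ± 0.21, adjusted p = 0.00212), and 2 fell. Among 11 peptide ligand genes 4 rose and 2 fell. Npy, which encodes the ligand of Npy1r, fell (-3.05 ± 0.67, adjusted p = 0.0252), Pdyn rose (2.51 ± 0.21, adjusted p = 2.44e-10), and Gal, the ligand of Galr1, was called higher at under 1 CPM in every library of the table (2.54 ± 0.89, adjusted p = 0.0192).

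**Figure D4:**
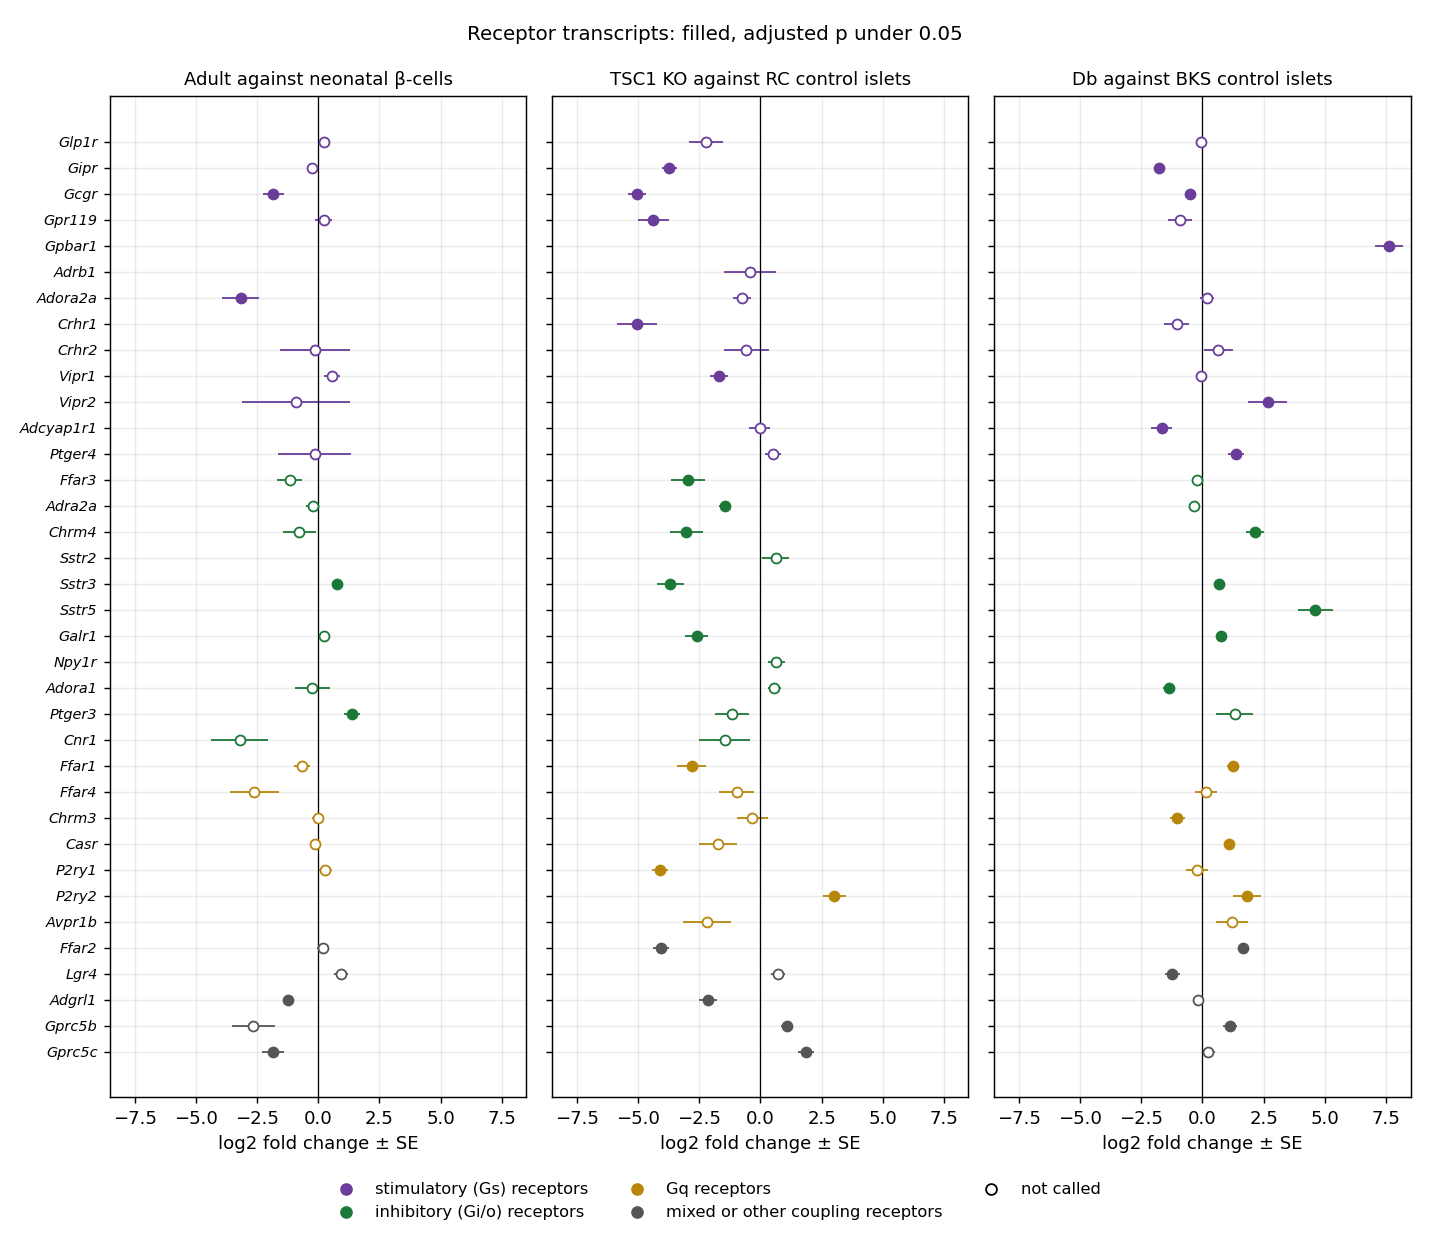
Log2 fold changes ± SE of each tested receptor in the 3 comparisons, from left to right adult against neonatal β-cells (n = 3 each), TSC1 KO against RC control islets and Db against BKS control islets (n = 2 each), coloured by coupling class. Filled points have an adjusted p under 0.05; 6, 17 and 18 receptors are filled, and Gcgr is filled on the lower side in all 3 panels.

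Set beside each other, 28 of the 42 receptors were called in at least 1 of the 3 comparisons. Of all genes tested, 6.98% were called in β-cells, 18.6% in TSC1 KO islets and 48.2% in Db islets. The share of all genes called in at least 1 comparison was not computed, so the count of 28 only describes the receptors. Gcgr was called lower in all 3, with log2 fold changes of -1.83 in adult β-cells, -5.03 in TSC1 KO islets and -0.51 in Db islets. Sstr3 was the other receptor called in all 3, at 0.76, -3.68 and 0.68. For both receptors the call in each comparison was lost with at least 1 library left out. The Gcgr call in Db islets was also lost with DESeq2, with no filter and under scaling by size alone. Gipr was lower in both TSC1 KO and Db islets, and P2ry2 and Gprc5b higher in both. Chrm4, Galr1, Ffar1 and Ffar2 were lower in TSC1 KO islets and higher in Db islets. Gprc5c was lower in adult β-cells and higher in TSC1 KO islets. Every call in TSC1 KO islets needed both knockout libraries. The calls of P2ry2 and Galr1 in Db islets and of Gprc5c in adult β-cells were also lost with some library left out. Glp1r, Crhr2 and Ffar4 were tested in all 3 and called in 0 of them. The 3 comparisons share no libraries.

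In 1 edgeR model of all 8 islet libraries, an interaction term tested whether the TSC1 KO effect differed from the Db effect. Ages and tables differ between the effects, so only differences within a table were compared. Of 37 receptors tested, Adra2c among them at 14 counts or fewer per library, 4 had a higher and 16 a lower TSC1 KO effect, against 13.2% and 18.6% of the 15702 genes tested and 31.8% in either direction. The difference was largest for Ffar2, whose TSC1 KO effect was below its Db effect by a log2 value of 5.83 (-5.83 ± 0.41 SE, edgeR adjusted p = 5.62e-06), followed by Chrm4 (-5.26 ± 0.76, adjusted p = 0.000369), Gcgr (-4.60 ± 0.41, adjusted p = 2.4e-05), Sstr3 (-4.44 ± 0.55, adjusted p = 0.000317) and Ffar1 (-4.14 ± 0.58, adjusted p = 0.000412). Gipr was lower in both islets, and lower by more in TSC1 KO islets (-2.01 ± 0.34, adjusted p = 0.00105). Adora1 (1.85 ± 0.41, adjusted p = 0.00458) and Lgr4 (1.85 ± 0.42, adjusted p = 0.00553), both lower in Db islets, differed in the other direction. For P2ry2 (1.11 ± 0.81, adjusted p = 0.311), Gprc5b (-0.13 ± 0.38, adjusted p = 0.817) and Glp1r (-2.25 ± 0.78, adjusted p = 0.0663) the difference did not pass the threshold, and the last was called by DESeq2, with library size as the only scaling, with no filter and without RC control replicate 1 or 2. Of the 20 differences, 13 were called under every alternative.

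**Figure D5:**
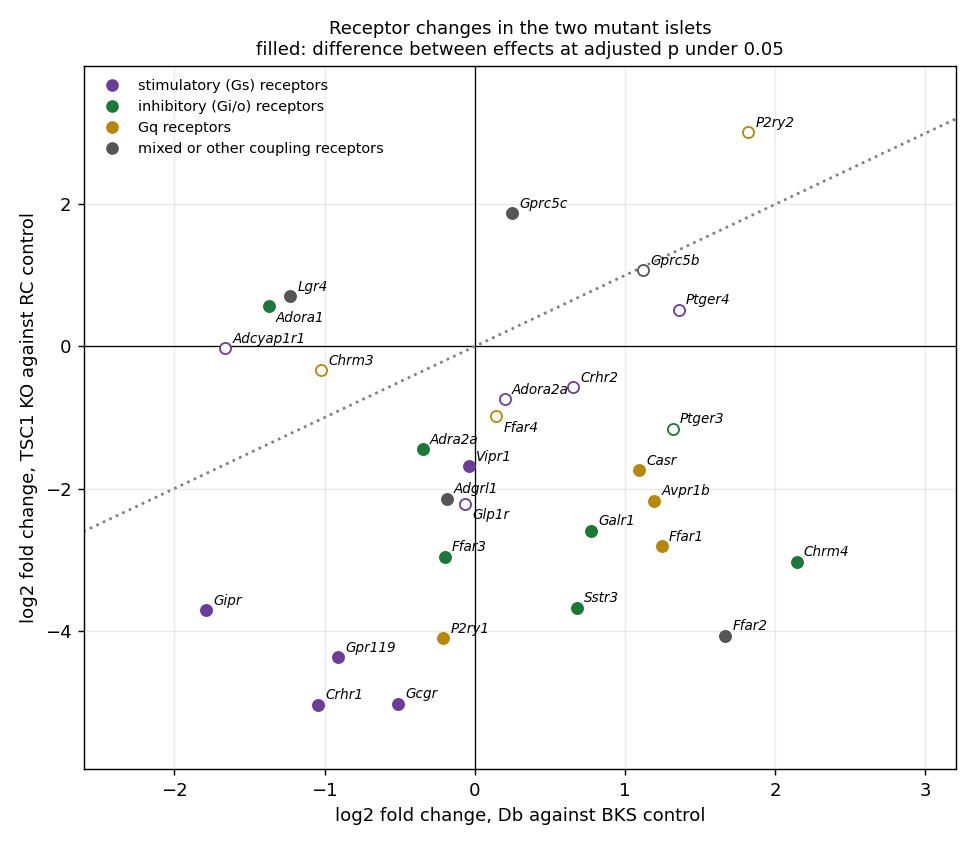
Log2 fold change in TSC1 KO against RC control islets (vertical axis) plotted against that in Db against BKS control islets (horizontal axis) for each receptor tested in both, coloured by coupling class. Filled points differ between the effects at an adjusted p under 0.05 in the joint fit, and the dotted line marks equal effects; Ffar2, Chrm4, Ffar1, Sstr3 and Galr1 lie at lower right, Gipr at lower left, and P2ry2 and Gprc5b at upper right.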

How the data were processed

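The starting point was 3 tables that the authors deposited, each holding raw, unnormalized counts of reads per Ensembl gene. Tools named in the submitters' processing notes are HTSeq 0.7.1, GSNAP, DESeq2 1.16.0 and cutadapt 1.13, with mm9 and NCBIM37 as genome builds. The sources used here do not give the strand setting of the counting, though the SMARTer kit named in the labels' protocols marks strand. Among the neonatal columns 2 are headed with number 3 and none with number 2, so they are called neonatal replicates 3a and 3b. No pair of libraries looked like 1 library deposited again (chi-square per degree of freedom within groups 10.0 to 81.3).

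Rows naming no gene were left out, and gene rows held 24.5% to 44.3% of reads in the 2 tables that have such rows. Symbols from GENCODE M21 matched 32620 of 37310 identifiers (87.4%). Within each table, groups were compared by the two-sided quasi-likelihood F test of edgeR 4.0.16 (R 4.3.3) after filterByExpr (minimum count 10, total 15) and TMM scaling, and p-values were adjusted by Benjamini and Hochberg's method across every gene tested. The SE given with an edgeR fold change is the absolute log2 fold change divided by the square root of F, so it is approximate, above all at low counts. The fit was tested on simulated data. Alternatives were other scalings, no filter, DESeq2 1.42.0, limma-voom (limma 3.58.1), each library left out, and the replicate number as a block. Same-numbered libraries did not deviate together, so the numbers were not taken as pairs. The receptors and gene lists were chosen with earlier results of these data known. Per-library values are given for called receptors (for more than 12, the 6 with the largest change in each direction) and for Glp1r, Gipr and Gcgr, and up to 3 called genes with the largest change are named per signalling list. Promoter windows are RefSeq's on GRCm38.p6.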

Additional observations from a re-analysis of the deposited data

Results flagged for a closer look

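For 20 receptors the TSC1 KO effect and the Db effect differed in the joint edgeR fit. Each value here is the log2 fold change of TSC1 KO against RC control islets minus that of Db against BKS control islets, with its adjusted p.

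Among stimulatory receptors the values were -4.60 for Gcgr (2.4e-05), -4.12 for Crhr1 (0.013), -3.56 for Gpr119 (0.00878), -2.01 for Gipr (0.00105) and -1.74 for Vipr1 (0.0251). Among inhibitory receptors they were -5.26 for Chrm4 (0.000369), -4.44 for Sstr3 (0.000317), -3.46 for Galr1 (0.000312), -2.83 for Ffar3 (0.00705), -1.19 for Adra2a (0.0117), 1.85 for Adora1 (0.00458) and 3.33 for Npy1r (0.0123). The Npy1r value sets 10.0 and 10.4 CPM in TSC1 KO islets against 7.74 and 5.30 in RC control islets beside 0.111 and 0.0485 CPM in Db islets against 0.428 and 0.770 in BKS control islets, the last 4 libraries having between 1 and 6 counts each.

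Gq receptors gave -4.14 for Ffar1 (0.000412), -3.98 for P2ry1 (0.00329), -3.44 for Avpr1b (0.0475) and -2.91 for Casr (0.0444). The other class gave -5.83 for Ffar2 (5.62e-06), -2.04 for Adgrl1 (0.00266), 1.53 for Gprc5c (0.0291) and 1.85 for Lgr4 (0.00553). Leaving out 1 library ended the call of Casr, Avpr1b, Vipr1, Gprc5c, Adra2a and Npy1r: the highest adjusted p was 0.139 for Casr without TSC1 KO replicate 2, 0.173 for Avpr1b and 0.172 for Gprc5c without BKS control replicate 1, 0.0971 for Vipr1 without TSC1 KO replicate 2, 0.0548 for Adra2a without TSC1 KO replicate 1 and 0.0715 for Npy1r without Db replicate 2. DESeq2 did not call Crhr1 (0.0673) or Avpr1b (0.0764), Gprc5c was not called under scaling by size alone (0.148), nor Avpr1b when mitochondrially encoded and insulin genes were left out of the scaling (0.0506).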

How the results depend on the processing

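DESeq2 called 7 receptors lower in adult β-cells (4 with edgeR) and 3 lower in Db islets (6 with edgeR). Calls over all genes moved in the same directions. DESeq2 called 911 of 15485 genes lower in adult β-cells, against 515 of 14304 with edgeR. In Db islets it called 1972 of 15246 genes lower, against 3431 of 14369 with edgeR. With 1 library left out, between 1 and 2 receptors were called higher and 1 to 4 lower in adult β-cells, 0 to 3 and 0 to 15 in TSC1 KO islets, 9 to 12 and 4 to 7 in Db islets, and 2 to 5 and 12 to 17 in the difference of effects. The value 2 of the last arose without Db replicate 2. No paired analysis was possible for β-cells because the neonatal columns carry the numbers 1, 3 and 3. In islets same-numbered libraries did not deviate together (correlations of -0.0547 and -0.0351), and with the replicate block 2 receptors were called higher and 12 lower in TSC1 KO islets, and 12 and 5 in Db islets. It ended the calls of Vipr1, Ffar3 and Gprc5b in TSC1 KO islets (adjusted p = 0.0589, 0.0821 and 0.0586) and of Gcgr in Db islets (0.0502). The block gave 727 higher and 921 lower genes in TSC1 KO islets, against 1252 and 1451 without it. When libraries were scaled by size alone, the median of all genes moved to -0.19 in adult β-cells, -0.25 in TSC1 KO islets, 0.29 in Db islets and -0.47 in the difference of effects, and genes were called 321 higher and 872 lower, 756 and 1961, 3983 and 1562, and 868 and 3811.

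Receptors whose sign turned were all uncalled in the main comparisons, and the causes were not tested. In adult β-cells, limma-voom gave 1.83 for Ptger4 and 0.024 for Chrm3. Leaving out 1 library gave, over the fits, -0.93 to 0.19 for Crhr2, -1.13 to 0.32 for Adora1, -0.73 to 1.85 for Ptger4, -0.11 to 0.18 for Chrm3, -0.002 to 0.52 for Gpr119, -0.002 to 0.32 for Ffar2, -0.45 to 0.001 for Gipr and -0.31 to 0.13 for Casr. In TSC1 KO islets, limma-voom gave 0.067 and the replicate block 0.052 for Adcyap1r1, and leaving out 1 library gave -0.48 to 0.63 for Adcyap1r1, -3.50 to 0.092 for Cnr1, -2.94 to 0.35 for Crhr2, -0.98 to 0.63 for Chrm3 and -6.12 to 0.39 for Adrb1. In Db islets, library size alone gave 0.13 for Adgrl1, 0.10 for Ffar3, 0.25 for Glp1r, 0.19 for P2ry1 and 0.27 for Vipr1, no filter 0.032 for Glp1r and 0.061 for Vipr1, and DESeq2 0.009 for Glp1r and 0.037 for Vipr1. Leaving out 1 library gave -0.45 to 0.31 for Vipr1, -0.30 to 0.78 for Ffar4, -0.72 to 0.66 for P2ry1, -0.13 to 0.89 for Gprc5c and -0.20 to 0.10 for Glp1r. Low counts limit the sizes of change of Gpr119, Crhr1, Gpbar1, Vipr2 and Sstr5, which had between 1 and 3 counts in 1 of the groups compared.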
